A study of Mus musculus with 24 samples.

Results

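The p53 target genes are a list of 34 mouse genes made up of Trp53, its regulators Mdm2 and Mdm4, and genes that p53 is known to switch on. They were found by matching the gene identifiers of the count table to gene symbols, and all 34 were present among 47069 identifiers. RNA sequencing measured them in fetal liver cells of mouse embryos at day E12.5-13.5, from B6J.129(Cg) mice that carry Gt(ROSA)26Sortm1.1, an allele in which the broadly active CAG promoter drives cas9* and EGFP, the genes of the nuclease Cas9 and of a green fluorescent protein. Every library, controls included, came from cells that carried a guide RNA against Gata1 (sgGata1), and the labels name them after GATA1s, a shortened GATA1 protein, the transcription factor of red cells and megakaryocytes. A second transgene carried either the microRNA miR-125b or its control, miR-ctrl. All groups received doxycycline, a drug that switches on inducible constructs, at 1 µg/mL.

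Each of the 8 groups held 3 libraries, numbered as replicates 1 to 3. Both transgenes were sampled after 48 h of doxycycline (Day2), after 10 days (Day10), after 13 days (Day13), and on day 13 after doxycycline was taken away on day 10 (Day13WD). The labels do not say whether the replicates were separate cultures or animals, so p-values measure the spread between these libraries, which may be technical. In bulk RNA, fewer cells of a type and less RNA per cell cannot be told apart.

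The protein p53, encoded by Trp53, is a transcription factor that is held at a low level by the ubiquitin ligase Mdm2 and its relative Mdm4. Stress such as DNA damage releases it, and it then switches on genes that stop the cell cycle, set off cell death, repair DNA or change metabolism, Mdm2 among them, which closes a feedback loop. Its activity rests mostly on the amount and modification of the protein, neither of which RNA sequencing measures. In human cells the p53 transcript has been described as a target of miR-125b. MicroRNAs pair with messages through their seed, bases 2 to 8, and the mature miR-125b of the mouse is shown here with the seed in capitals (RefSeq, GRCm38.p6).
miR-125b-5p: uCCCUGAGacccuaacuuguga

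The exact 7-base match to this seed, CTCAGGG, stood in the longest annotated 3′ UTR of 6 of the 34 genes (17.6%), against 15.9% of 11665 tested genes with an annotated 3′ UTR. Trp53, Cdkn1a, Mdm2 and Mdm4 had no such match. The 6 stretches are shown as the matches that this search found. Other kinds of seed match, other 3′ UTRs of the same genes and coding sequence were not searched. The capitals mark the match, and that of Tigar extends to 8 bases with a final A. All lie in 3′ UTRs of GRCm38, at chr11:40748828-40748834 on the minus strand in Ccng1, chr4:11170348-11170354 on the plus strand in Trp53inp1, chrX:97334196-97334202 on the minus strand in Eda2r, chr2:91211737-91211743 on the minus strand in Ddb2, chr1:134076913-134076919 on the minus strand in Btg2 and chr6:127086828-127086835 on the minus strand in Tigar.
Ccng1: aaacataggcagcagCTCAGGGccc
Trp53inp1: aagcaaaaatctattCTCAGGGtca
Eda2r: ggaggtgagtcaggcCTCAGGGttc
Ddb2: agtaaaccagctacgCTCAGGGtcc
Btg2: ctggtccctctcttaCTCAGGGgca
Tigar: agctcacaccacagcCTCAGGGAaa

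p53 binds DNA at pairs of a 10-base half-site, searched here by its consensus (the p53 half-site consensus), which reads the same on both strands. RefSeq promoter windows, from 250 bases before to 50 bases after a gene's start, were matched for 26 of the 34 genes, with 37 windows between them. The half-site stood in 10 of the 37 windows (27.0%), in 9 genes, against 8.36% of 32851 windows of all genes. Windows of Aen overlap and hold the same half-site, which counts for each of them. DNA outside the windows was not searched. A pair of half-sites with at most 13 bases between them stood in 1 of the 37 windows (2.7%), a window of Cdkn1a, against 0.0731% of all windows. The stretches of Cdkn1a (chr17:29090886-29090957, plus strand), Mdm2 (chr10:117710915-117710964, minus strand) and Trp53 (chr11:69580264-69580313, plus strand) are shown with half-sites in capitals, since these 3 genes carry the feedback loop and its best-known output. Only exact matches were marked. The 10 bases directly after the second half-site of Cdkn1a differ from the consensus in 1 base and so stay in lower case. A match describes the letters of the window and is no evidence of binding.
Cdkn1a: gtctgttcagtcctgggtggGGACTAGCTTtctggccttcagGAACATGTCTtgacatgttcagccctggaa
Mdm2: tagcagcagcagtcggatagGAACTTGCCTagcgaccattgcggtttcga
Trp53: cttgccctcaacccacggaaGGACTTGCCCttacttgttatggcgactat

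The half-sites of Cdkn1a began 73 and 51 bases before the start to which that window belongs. The window of another start of Cdkn1a (chr17:29093519-29093818) held none. The half-site of Mdm2 began 186 bases before its start and that of Trp53 75 bases before. The other genes with a half-site in a window were Ccng1, Aen, Ei24, Sesn1, Polk and Gtse1. The windows of Ak1, Phlda3, Pltp, Sesn2, Ercc5, Psrc1 and Zfp365 held none.

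Libraries held 14694900 to 23755245 counts, and levels are given as CPM after TMM scaling, that is, counts brought to the same library size with a correction for differences in composition. Of the 34 genes, 33 passed the filter on low counts and were tested among 13419 genes. Pltp and Zfp365 passed it through their miR-125b libraries, since they held at most 17 and 8 counts in any control library. They could therefore hardly be called lower with miR-125b. A gene was called when its edgeR quasi-likelihood p, adjusted by the Benjamini-Hochberg method over those genes, was under 0.05. Libraries with the same replicate number deviated together, so values from a second fit, which takes the replicate number as a block, are given wherever they change a call. Among marker genes, those of megakaryocytes summed to 2820 to 7420 CPM and those of mast cells and basophils to 298 to 1430 CPM. Erythroid genes summed to 278 to 667 CPM, with only the membrane gene Slc4a1 at 0 in every library. Stem and progenitor genes summed to 144 to 240 CPM, with only Hoxa9 and Mecom at 0 in every library. Those of lymphoid cells summed to at most 0.667 CPM and those of hepatoblasts to at most 4.56 CPM, with Ttr at 0. Gata1, whose guide every library carried, lay between 194 and 514 CPM. Library by library, 2 stood apart. In miR-125b Day10 replicate 3 the p53 target genes were high, and miR-ctrl Day13WD replicate 1 was the highest of the 24 libraries for 14.8% and the lowest for 15% of all genes.

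The day 13 labels need care. Arid3a, the transcription factor gene that the study's title names as a target of miR-125b, had means of 31.8 CPM with miR-125b and 58.5 CPM with control at Day10. In the libraries labelled Day13 it lay at 45.4 to 57.5 CPM with miR-125b and 49.5 to 71.9 CPM with control, and the groups overlapped. In those labelled Day13WD, where doxycycline had been withdrawn, it lay at 26.7 to 35.6 CPM with miR-125b and 64.1 to 76.3 CPM with control. The microRNA's named target was thus low in the libraries labelled as withdrawn, and the groups are called by their labels throughout. Whether the labels of these groups are exchanged was not tested.

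At Day10, 5 p53 target genes rose with miR-125b (Cdkn1a, Ak1, Phlda3, Tnfrsf10b and Pltp) and none was called lower. That is 5 of 33, where 0.872% of all genes were called and 0.455% were called higher. With the replicate block, 11 rose and 0 fell, where 8.63% of all genes were called and 4.74% were called higher. The median log2 fold change over the 33 genes was 0.39, against 0.00 over all genes, and 25 were above 0 and 8 below. The 3 libraries with miR-125b all lay above the 3 controls for 11 of the 33 genes (9.14% of all genes) and all below for 2 (10.5% of all genes). Within replicate numbers, 19 genes were higher in all 3 (23.5% of all genes) and 4 lower (23.4% of all genes). No p53 target gene was called without the block at Day2 or in the libraries labelled Day13 and Day13WD.

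**Figure D1:**
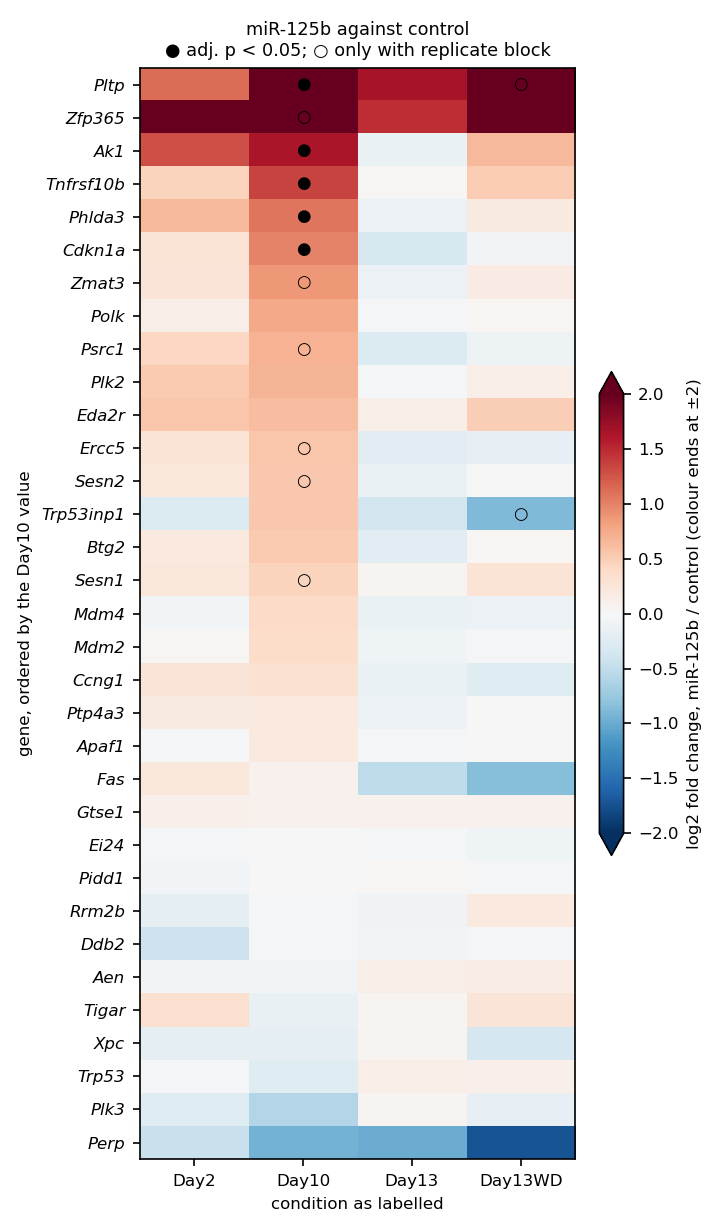
Log2 fold change of miR-125b over control for the 33 tested p53 target genes (rows, ordered by the Day10 value) in the 4 conditions as labelled (columns), with colour ending at ±2. Filled circles mark an adjusted p under 0.05 and open circles those reached only with the replicate block. The Day10 column holds 5 filled and 6 open circles, and the Day13WD column holds 2 open circles.

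Replicate 3 with miR-125b stood apart at Day10. In that library the median p53 target gene lay 0.54 above its own mean over the 24 libraries on the log2(CPM + 1) scale, while the other libraries lay between -0.21 and 0.17. It was the highest of all 24 libraries for 18 of 33 p53 target genes, against 8.98% of all genes. Without it, 0 members of the list were called at Day10 in the fit without the block, with a median log2 fold change of 0.17. The count was also 0 without control replicate 1 or control replicate 3. The shares of all genes called in these 3 fits are not given here, so the counts of 0 do not set the list apart from other genes. Of the 6 fits that left out 1 library, the one without miR-125b replicate 3 had the lowest median. With the block and without miR-125b replicate 3, 5 genes were called, all higher (Cdkn1a, Phlda3, Ak1, Pltp and Zmat3), where 0.63% of all genes were called.

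**Figure D2:**
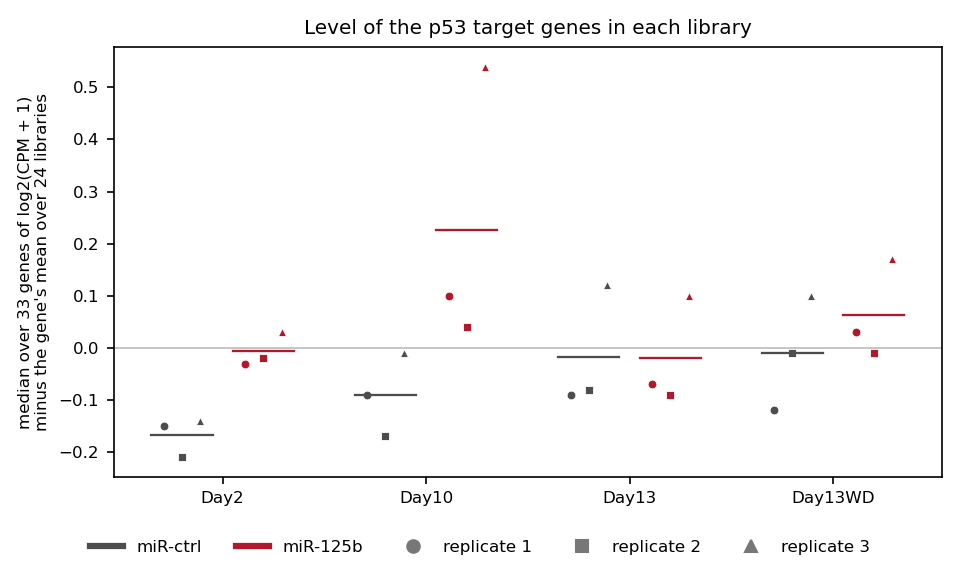
Median over the 33 tested p53 target genes of log2(CPM + 1) minus each gene's mean over the 24 libraries, for each library by condition as labelled, with bars at group means. miR-125b Day10 replicate 3 stands at 0.54, above the range of -0.21 to 0.17 of the other 23 libraries.

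Trp53 itself (chr11:69580359-69591873, GRCm38) was the steadiest of the regulators. Its level ran from 294 CPM, in miR-125b Day10 replicate 3, to 401 CPM, in miR-ctrl Day10 replicate 1, a range of 1.37 times over the 24 libraries. At Day10 it measured 314, 336 and 294 CPM with miR-125b and 401, 362 and 363 CPM with control, in replicates 1, 2 and 3. The groups did not overlap, and miR-125b was lower within all 3 replicate numbers, yet the difference was not called (log2 fold change -0.25 ± 0.0871 SE, edgeR adjusted p = 0.132, and 0.0622 with the block). The library with the highest level of p53 target genes was thus the one with the lowest Trp53 transcript. The log2 fold change was -0.02 at Day2 (adjusted p = 1, edgeR), 0.13 in the libraries labelled Day13 (0.999) and 0.10 in those labelled Day13WD (0.801).

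Mdm2, the ubiquitin ligase that p53 switches on and that in turn marks p53 for destruction, stood at 106, 99.9 and 159 CPM with miR-125b at Day10 and at 90.1, 98.5 and 93.8 CPM with control. The groups did not overlap, but only replicate 3 stood far from the controls. The log2 fold change was 0.37 ± 0.149 (SE) with an edgeR adjusted p of 0.199, and 0.13 without that replicate. At Day2 it was 0.02 (adjusted p = 1), in the libraries labelled Day13 -0.09 (0.999) and in those labelled Day13WD -0.04 (0.967).

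Mdm4, which holds down the activity of p53, measured 261, 196 and 320 CPM with miR-125b at Day10 and 197, 171 and 225 CPM with control. These groups overlapped, although miR-125b was higher within each replicate number, and the log2 fold change of 0.39 ± 0.186 (SE) had an edgeR adjusted p of 0.283. The other log2 fold changes of Mdm4 were -0.06 at Day2 (adjusted p = 1), -0.14 in the libraries labelled Day13 (0.999) and -0.11 in those labelled Day13WD (0.925). Neither Mdm gene was called in any of the 4 comparisons.

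Of the genes that act on the cell cycle, Cdkn1a (chr17:29090976-29100727), which encodes the cyclin-dependent kinase inhibitor p21, was the one called at Day10 in both fits. It measured 231, 171 and 421 CPM with miR-125b and 126, 136 and 154 CPM with control. All miR-125b libraries lay above all controls, and replicate 3 was 2.09 times the mean of the other 2. Cdkn1a rose 1.98-fold (log2 fold change 0.99 ± 0.23 SE, edgeR adjusted p = 0.0471, and 0.0057 with the block). Without replicate 3 the log2 fold change was 0.54 and the call was lost (adjusted p = 0.352), while with the block and without that library it was 0.62 (adjusted p = 0.0481).

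At the other times Cdkn1a did not pass the test. At Day2 it measured 126, 131 and 144 CPM with miR-125b and 117, 108 and 103 CPM with control, which do not overlap (log2 fold change 0.28, adjusted p = 1). The libraries labelled Day13 held 111, 106 and 163 CPM with miR-125b and 127, 166 and 180 CPM with control (-0.32, adjusted p = 0.999). Here miR-125b was the lower of the pair within all 3 replicate numbers. Those labelled Day13WD held 163, 154 and 177 CPM with miR-125b and 155, 167 and 195 CPM with control, and overlapped (-0.06, adjusted p = 0.967).

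**Figure D3:**
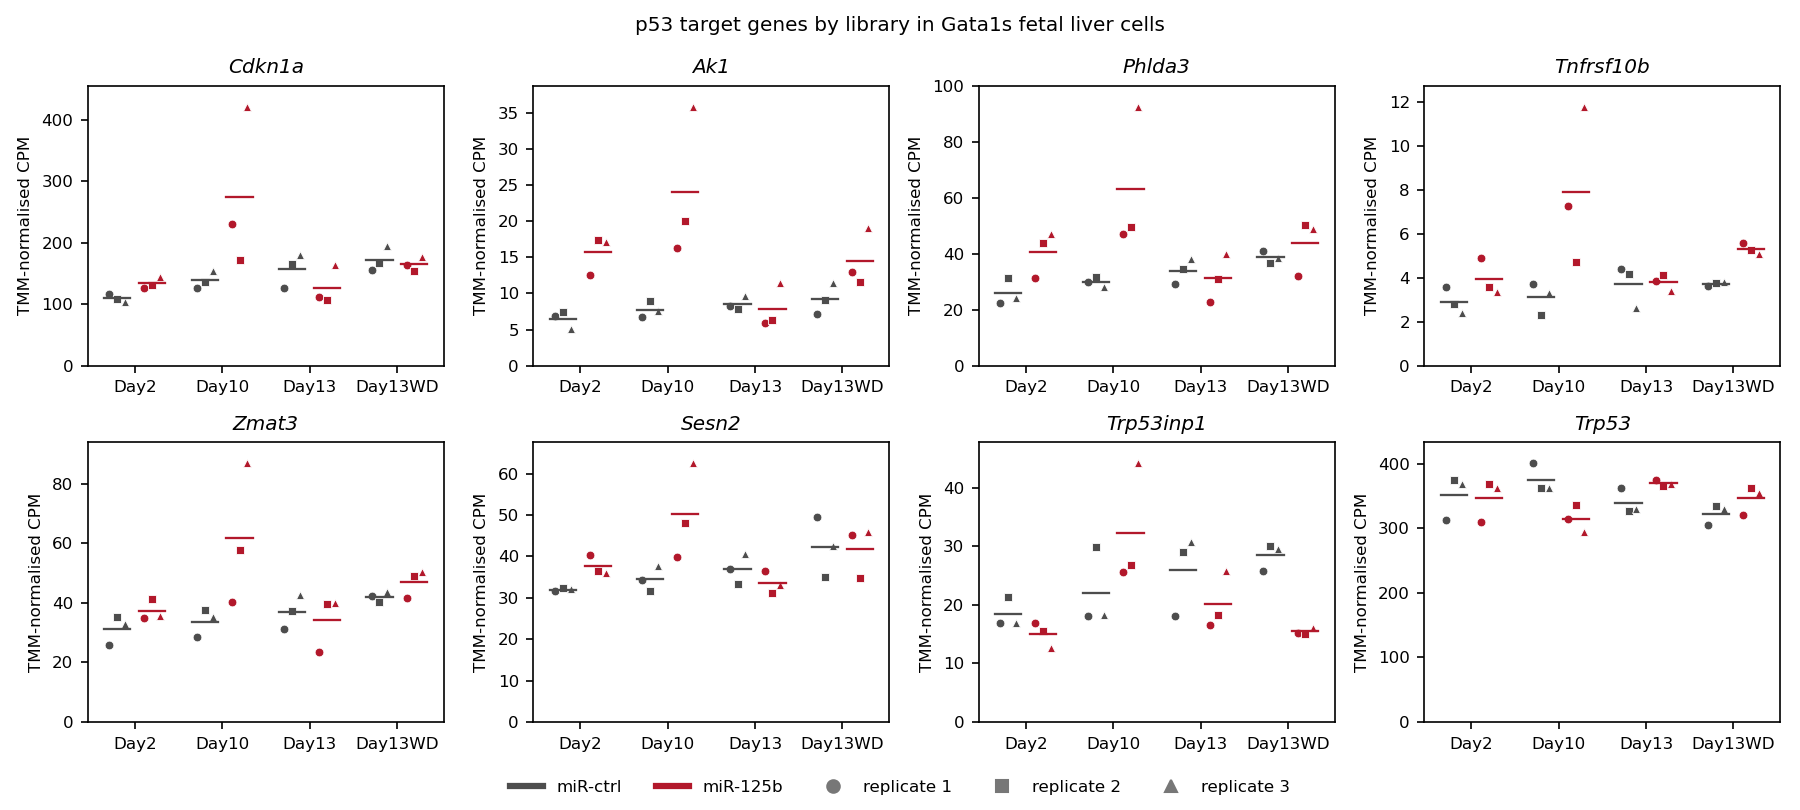
TMM-normalised CPM of 8 genes of the list in each of the 24 libraries, by condition as labelled, with miR-125b in red, control in grey, symbols for the replicate number and bars at group means. At Day10 the miR-125b libraries of Cdkn1a, Ak1, Phlda3, Tnfrsf10b, Zmat3 and Sesn2 all lie above the controls, with replicate 3 highest, while those of Trp53 lie below.

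Psrc1, which encodes a protein of the mitotic spindle, differed more between replicate numbers than between transgenes. At Day10 it measured 67.2, 109 and 173 CPM with miR-125b and 49.9, 86.7 and 78.2 CPM with control. The groups overlapped, and within each replicate number miR-125b was higher. It was called with the block (log2 fold change 0.65, adjusted p = 0.0334, edgeR) and not without it (0.70 ± 0.426 SE, adjusted p = 0.427). Over all 24 libraries it ran from 32.6 to 173 CPM, and replicate 1 was the lowest of the 3 in all 8 groups.

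The remaining cell cycle genes were not called at Day10. Btg2, an antiproliferative gene with a seed match, had 93.8, 56.0 and 99.6 CPM with miR-125b and 58.6, 52.2 and 63.6 CPM with control, and overlapped. Ccng1, which encodes cyclin G1 and also holds a seed match, had 229, 220 and 346 CPM against 226, 189 and 229 CPM. Neither transcript was lower with miR-125b within any of the 3 replicate numbers. Plk3, a Polo-like kinase gene, was one of the 2 genes with all miR-125b libraries below the controls at Day10, at 12.8, 16.3 and 9.62 CPM against 19.3, 18.3 and 20.6 CPM. The other was Trp53. Plk3 overlaps an exon of Tctex1d4 on the opposite strand, which held 452 counts in all against 7745 for Plk3. Plk2, its relative, was scarce, at 0.503 to 3.46 CPM over the 24 libraries. Gtse1, which acts on p53 in the G2 phase, ran from 66.6 to 108 CPM, and Ptp4a3, a phosphatase gene, from 336 to 610 CPM, both highest in miR-125b Day10 replicate 3.

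Of the genes of cell death, Tnfrsf10b (chr14:69767472-69784411), which encodes the mouse receptor for the death ligand TRAIL, was called at Day10. It measured 7.28, 4.72 and 11.8 CPM with miR-125b and 3.74, 2.31 and 3.31 CPM with control, so the groups did not overlap. Tnfrsf10b rose 2.54-fold (log2 fold change 1.35 ± 0.287 SE, edgeR adjusted p = 0.0343, and 0.006 with the block). Without replicate 3 the log2 fold change was 0.94 (adjusted p = 0.304), and with the block and without that library it was 0.85 (adjusted p = 0.093), so this call was not kept in either fit.

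Phlda3 (chr1:135766119-135769136), which encodes an inhibitor of the survival kinase Akt, measured 47.0, 49.6 and 92.6 CPM with miR-125b at Day10 and 29.8, 31.7 and 28.3 CPM with control. The controls lay within 1.71 CPM (SD, n = 3), and every miR-125b library was above them. It rose 2.11-fold (log2 fold change 1.07 ± 0.243 SE, edgeR adjusted p = 0.0443, and 0.00404 with the block). Without replicate 3 the log2 fold change was 0.69 (adjusted p = 0.346), and with the block and without that library it was 0.74 (adjusted p = 0.0481). At Day2 Phlda3 measured 31.5, 43.8 and 47.1 CPM against 22.5, 31.3 and 24.2 CPM, which do not overlap but were not called (log2 fold change 0.65, edgeR adjusted p = 0.904).

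Trp53inp1, which encodes a nuclear protein that promotes p53-dependent death and holds a seed match, did not keep 1 direction. At Day10 it measured 25.6, 26.7 and 44.2 CPM with miR-125b and 18.1, 29.8 and 18.2 CPM with control, and was not called. In the libraries labelled Day13WD it measured 15.2, 15 and 16.1 CPM with miR-125b and 25.8, 30.1 and 29.6 CPM with control. These did not overlap, and the differences within replicate numbers on the log2(CPM + 1) scale were -0.73, -0.96 and -0.84. The log2 fold change of -0.88 ± 0.237 (SE) was not called without the block (edgeR adjusted p = 0.192) and was called with it (0.0351). Without miR-ctrl Day13WD replicate 1 the block fit gave -0.85 and an adjusted p of 0.0625.

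Perp, which encodes a membrane protein of p53-dependent death and of desmosomes, followed the replicate number. With control it measured 3.84, 0.483 and 11.8 CPM at Day10, 5.21, 0.183 and 15.8 CPM in the libraries labelled Day13 and 6.36, 0.382 and 16 CPM in those labelled Day13WD. Replicate 2 was the lowest and replicate 3 the highest in each of these 3 groups, and Day2 had a narrower spread of 5.53, 2.60 and 4.49 CPM. With miR-125b the same groups held 2.88, 1.12 and 4.43 CPM, 2.68, 1.79 and 6.13 CPM, and 1.84, 0.641 and 4.37 CPM. No comparison of Perp was called.

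Fas, the receptor for the Fas ligand, was scarce at 1.25 to 6.88 CPM, and its highest value was in miR-ctrl Day13WD replicate 2. Eda2r, a receptor of the same family with a seed match, ran from 1.46 to 6.44 CPM and was higher with miR-125b within all 3 replicate numbers at both Day2 and Day10 without being called. Aen, an apoptosis-enhancing nuclease gene, ran from 101 to 149 CPM, Ei24 from 70.2 to 98.8 CPM, Apaf1, the scaffold of the apoptosome, from 55.4 to 84.6 CPM, and Pidd1, which encodes a death-domain protein, from 50.7 to 95.1 CPM. Aen, Ei24 and Apaf1 varied little, with highest values 1.48, 1.41 and 1.53 times the lowest, and the log2 fold changes of these last 4 genes at Day10 were -0.05, 0.01, 0.19 and 0.01.

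The genes of DNA repair gave 1 call at Day10, with the block only. Ercc5, an endonuclease gene of nucleotide excision repair, measured 35.9, 27.5 and 46.1 CPM with miR-125b and 24.1, 23.4 and 27.2 CPM with control. The groups stood just apart (log2 fold change 0.55 ± 0.158 SE, edgeR adjusted p = 0.0866, and 0.00528 with the block). Polk, a translesion polymerase gene, measured 31.3, 18.7 and 51.2 CPM against 21.5, 18.6 and 19.6 CPM. Its log2 fold change of 0.76 came from replicates 1 and 3, since replicate 2 differed by 0.01 on the log2(CPM + 1) scale.

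Both damage-recognition genes of nucleotide excision repair went without a call. Ddb2, with a seed match, measured 13.3, 9.49 and 8 CPM with miR-125b at Day10 and 11.0, 10.1 and 10.2 CPM with control. Xpc measured 28.8, 22.0 and 21.5 CPM against 35.0, 22.2 and 25.1 CPM. Rrm2b, the p53-inducible subunit of ribonucleotide reductase, measured 10.2, 10.8 and 10.8 CPM against 10.3, 10.8 and 11.3 CPM. None was called in any of the 4 comparisons. Ddb2 overlaps an exon of Acp2 on the opposite strand, and the use of strand in counting is not given in the sources used here, so reads of the pair cannot be told apart.

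Of the metabolic genes, Ak1 (chr2:32621758-32635058), which encodes an adenylate kinase that balances adenine nucleotides, was called at Day10. There it measured 16.2, 20 and 35.8 CPM with miR-125b and 6.71, 8.91 and 7.59 CPM with control. Every miR-125b library was well above every control, and the difference within replicate numbers was 1.15, 1.09 and 2.10 on the log2(CPM + 1) scale. Ak1 rose 3.10-fold (log2 fold change 1.63 ± 0.296 SE, edgeR adjusted p = 0.0188, and 0.000784 with the block). Without replicate 3 the log2 fold change was 1.2 (adjusted p = 0.173), and with the block and without that library it was 1.32 (adjusted p = 0.0144).

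Ak1 at Day2 measured 12.6, 17.4 and 17.1 CPM with miR-125b and 6.88, 7.40 and 5.03 CPM with control. These also did not overlap, and among all 13419 genes it ranked 5 by p, but it was not called (log2 fold change 1.29 ± 0.296 SE, edgeR adjusted p = 0.768, and 0.114 with the block). The libraries labelled Day13 held 5.85, 6.32 and 11.4 CPM with miR-125b and 8.22, 7.83 and 9.67 CPM with control, which overlapped (log2 fold change -0.13). Those labelled Day13WD held 12.9, 11.5 and 19.0 CPM against 7.12, 9.08 and 11.4 CPM, where the groups just failed to overlap (0.65, adjusted p = 0.554). With miR-125b the mean of Ak1 was 24 CPM at Day10, 7.85 CPM under the label Day13 and 14.5 CPM under Day13WD. There the libraries labelled Day13WD stood nearer to Day10. The same means of Trp53inp1 were 32.2, 20.2 and 15.5 CPM, where those labelled Day13 stood nearer. Of the 11 genes called with the block at Day10, 10 were higher under Day13WD than under Day13 with miR-125b and 1 was lower. These 11 were picked by their Day10 values. Over the 33 tested genes, 20 were higher and 13 lower, and 50.7% of all genes were higher. Which label stood nearer to Day10 over the list was not tested.

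Pltp (chr2:164839518-164857711), the phospholipid transfer protein gene, had the largest fold change of the list at Day10 and few reads. At Day10 it measured 0.831, 1.22 and 2.54 CPM with miR-125b and 0, 0.0537 and 0.0542 CPM with control. This rests on 84 counts against 2, a ratio of 44.9 with a 95% exact counting interval of 12.1 to 377. Pltp rose at Day10 (log2 fold change 5.21 ± 0.833 SE, edgeR adjusted p = 0.0123, and 0.000755 with the block). The fitted value depends on how near-zero counts are treated. Its counts were 60 against 29 at Day2, a ratio of 2.06 (1.3 to 3.33), and 14 against 4 in the libraries labelled Day13, a ratio of 3.4 (1.07 to 14.2). In those labelled Day13WD they were 58 against 8, a ratio of 7.99 (3.8 to 19.4), and this was called with the block only (log2 fold change 2.96, adjusted p = 0.0145, and 0.133 without it). The intervals cover counting error only.

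Pltp overlaps exons of Ctsa on the opposite strand, and Ctsa held 32713 counts in all against 259 for Pltp. Without the use of strand, reads of the 2 genes in the overlap cannot be told apart. At Day10 Ctsa measured 75.0 ± 1.92 CPM with miR-125b and 79.1 ± 10.7 CPM with control (SD, n = 3). The part of Ctsa reads in the counts of Pltp was not tested.

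The sestrins are stress proteins that restrain the growth kinase mTORC1. Sesn2 measured 39.9, 48.1 and 62.6 CPM with miR-125b at Day10 and 34.2, 31.6 and 37.7 CPM with control, without overlap. It was called with the block only (log2 fold change 0.54 ± 0.147 SE, edgeR adjusted p = 0.0761, and 0.0129 with the block). Sesn1 measured 115, 84.6 and 105 CPM against 83.3, 66.5 and 74.3 CPM and was also called with the block only (0.44 ± 0.215 SE, adjusted p = 0.296, and 0.0155 with the block). Sesn1 is the one gene among the 11 called with the block at Day10 in which replicate 1, not replicate 3, was highest. Tigar, a regulator of glycolysis with the 8-base seed match, measured 7.03, 13.3 and 8.81 CPM against 9.53, 11.0 and 11.9 CPM and was not called.

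Zmat3, an RNA-binding protein gene, measured 40.4, 57.8 and 87.0 CPM with miR-125b at Day10 and 28.4, 37.6 and 35.2 CPM with control. All miR-125b libraries lay above all controls. The log2 fold change of 0.87 ± 0.222 (SE) missed the threshold without the block (edgeR adjusted p = 0.0626) and passed it with the block (0.00319), also without replicate 3 (0.58, adjusted p = 0.0483).

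Zfp365, a zinc finger gene linked to genome stability, was scarce, with 49 counts against 11 at Day10, a ratio of 4.77 (2.45 to 10.2). Its ratio was 5.26 at Day2 (2.32 to 14), 2.91 in the libraries labelled Day13 (1.59 to 5.62) and 8.26 in those labelled Day13WD (3.51 to 23.7). It was thus above 1 in all 4 conditions, although 32 of the 45 miR-125b counts labelled Day13 came from replicate 1. At Day10 it was called with the block only (log2 fold change 2.35, edgeR adjusted p = 0.0487, and 0.202 without it). Gdf15, a secreted stress cytokine gene, failed the filter, with 20 counts against 28 at Day10 and a highest count of 16 in any library.

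**Figure D4:**
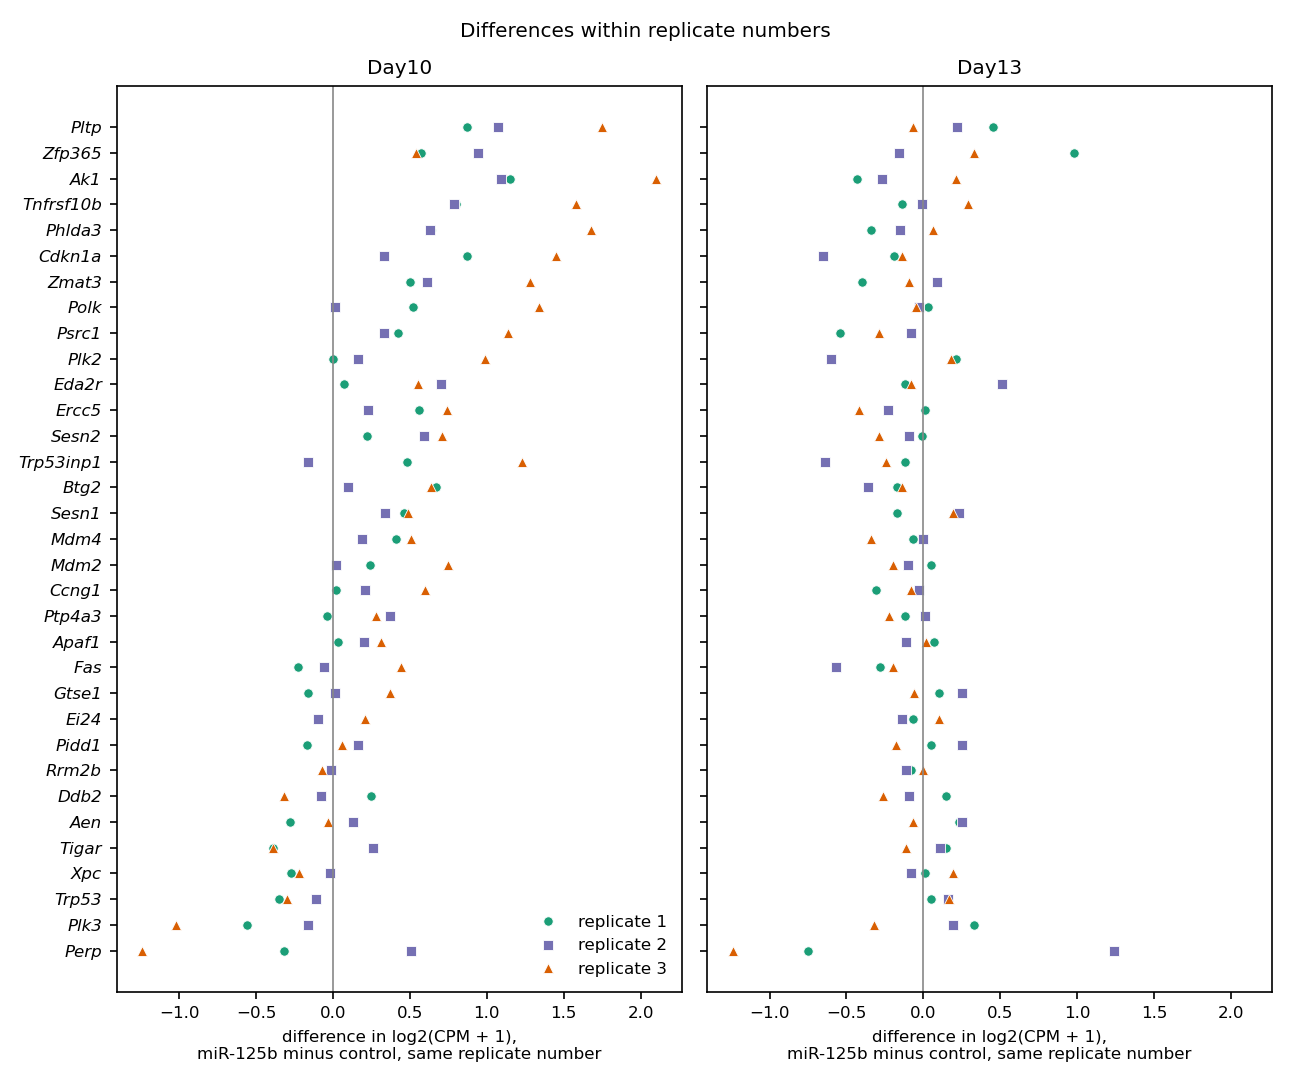
Differences in log2(CPM + 1) between miR-125b and control within each replicate number, for the 33 tested genes at Day10 (left) and in the libraries labelled Day13 (right). At Day10 19 genes are above 0 in all 3 replicates, and replicate 3 lies farthest right for most of them, while on the right 1 gene is above 0 and 8 are below 0 in all 3.

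At Day2, 0 of the 33 genes were called without or with the block, as for all genes (0% in both fits), and DESeq2 also called 0 (0.0224% of all genes with an adjusted p there). At an unadjusted p under 0.05 there were 3 of them without the block (Ak1, Phlda3 and Zfp365, where 5.28% of all genes were) and 6 with it (9.16%). The median log2 fold change was 0.20, against 0.00 for all genes. All miR-125b libraries lay above all controls for 8 genes (6.09% of all genes) and below for 1, Trp53inp1 (6.22% of all genes). Within replicate numbers, 15 of 33 genes were higher in all 3 (18.8% of all genes) and 7 lower in all 3 (17.1% of all genes). The 11 genes called with the block at Day10 were higher with miR-125b in all 3 replicate numbers at Day2 as well. They were picked by their Day10 values, and the share among all genes picked that way was not computed, so this is no separate test.

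In the libraries labelled Day13, 0 of the 33 genes were called in either edgeR fit, where 0% of all genes were called without the block and 0.0149% with it, and DESeq2 called 0 (0.0224%). No p was under 0.05 unadjusted without the block (2.89% of all genes), and 2 were with it (6.37%). The median log2 fold change was -0.06, against -0.02 for all genes, and 12 genes were above 0 and 21 below. The groups were apart for 1 gene, Trp53, which was higher (4.4% of all genes), and for 0 genes in the lower direction (4.12% of all genes). Within replicate numbers, 1 gene was higher in all 3 (15.1% of all genes) and 8 lower (17.3% of all genes). Of the 11 genes called with the block at Day10, and so picked by their values there, 4 were above 0 here and 7 below.

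In the libraries labelled Day13WD, 0 of 33 genes were called without the block (0.119% of all genes) and 2 with it (1.86% of all genes). Those 2 went opposite ways, Pltp higher and Trp53inp1 lower, and DESeq2 called the same 2 (0.792% of all genes). At an unadjusted p under 0.05 there were 4 without the block (8.55% of all genes). The median log2 fold change was 0.00, against -0.01 for all genes. All miR-125b libraries lay above the controls for 7 genes (5.77% of all genes), namely Ak1, Tnfrsf10b, Pltp, Eda2r, Rrm2b, Tigar and Zfp365, and below for Trp53inp1 alone (5.62% of all genes). Within replicate numbers, 11 genes were higher in all 3 (15.3% of all genes) and 3 lower (16.3% of all genes). Many genes here had an odd control value in replicate 1. Ccng1 measured 424, 198 and 261 CPM with control, Xpc 46.0, 21.8 and 25.6 CPM, and Plk3 7.25, 21.2 and 20.8 CPM. Without that library the block fit called Pltp (log2 fold change 3.59, adjusted p = 0.0124, edgeR) and Zfp365 (4.73, adjusted p = 0.0265).

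Averaged over the 4 conditions, 4 p53 target genes rose with miR-125b, namely Pltp, Ak1, Zfp365 and Tnfrsf10b (1.28% of all genes were called). With the block 7 rose and 0 fell (6.39% of all genes). Here too Pltp and Zfp365 could hardly have been called lower, given how they passed the filter on low counts. Ak1 had a mean log2 fold change of 0.86 ± 0.146 (SE, edgeR adjusted p = 0.00433), Pltp 2.72 ± 0.38 (0.000854) and Zfp365 2.23 ± 0.46 (0.0167). Each of these 3 was called in all 24 fits that left out 1 library. Tnfrsf10b had 0.58 ± 0.143 (0.0485) and was called in 2 of those 24. The block added Phlda3 (0.42, adjusted p = 0.0102), Zmat3 (0.28, adjusted p = 0.0276) and Sesn1 (0.25, adjusted p = 0.00461). Sesn1 stood out for its evenness, with mean differences of 0.23, 0.26 and 0.27 in replicates 1, 2 and 3 on the log2(CPM + 1) scale.

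Between Day2 and Day10, with miR-125b, 0 of the 33 genes were called without the block (0.224% of all genes), with 15 at an unadjusted p under 0.05 (14.9% of all genes). DESeq2 called 4 (2.74% of all genes with an adjusted p there). With the block 5 rose (4.08% of all genes). They were Trp53inp1 (log2 fold change 1.06, adjusted p = 0.0127, edgeR), Cdkn1a (0.99, 0.0102), Tnfrsf10b (1.01, 0.0378), Zmat3 (0.69, 0.0183) and Ercc5 (0.45, 0.0228). None of the 5 was called with the block once miR-125b Day10 replicate 3 was left out. With control, 0 were called in both fits (0% and 0.149% of all genes), with 2 at an unadjusted p under 0.05 (6.75%). DESeq2 called 0 of the 13 that it gave an adjusted p, and the other 20 had none and could not be called. The change of the miR-125b effect from Day2 to Day10 was called for 0 genes in both edgeR fits and by DESeq2 (0% of all genes in each). There were 4 at an unadjusted p under 0.05 (6.86% of all genes), so a larger effect at Day10 than at Day2 is not shown.

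Between Day10 and the libraries labelled Day13, the miR-125b effect differed for 7 genes with the block, all lower at Day13 (3.85% of all genes), and for 0 without it (0.0224% of all genes), where 13 had an unadjusted p under 0.05 (14.6% of all genes) and DESeq2 called 4 (2.89%). The 7 were Cdkn1a, Phlda3, Ak1, Sesn2, Zmat3, Ercc5 and Psrc1. Without miR-125b Day10 replicate 3 the block fit called 0 of them. Between the libraries labelled Day13WD and those labelled Day13, no p53 target gene was called with miR-125b (0% of all genes called, and 0.0522% with the block) or with control (0%, and 0.00745% with the block). With miR-125b, 3 had an unadjusted p under 0.05 without the block (Ak1, Pltp and Sesn2, where 2.21% of all genes did). With the block 8 did (4.75% of all genes), namely these 3 and Zmat3, Phlda3, Cdkn1a, Ptp4a3 and Eda2r, each with the higher value in the libraries labelled Day13WD. Within replicate numbers, 14 genes were higher in all 3 in those libraries (17.1% of all genes) and 6 lower (15.5%). Ak1, at 12.9, 11.5 and 19.0 CPM against 5.85, 6.32 and 11.4 CPM, did not overlap between them (log2 fold change 0.88, edgeR adjusted p = 1, and 0.363 with the block). With control, 0 had an unadjusted p under 0.05 without the block (2.65% of all genes) and 2 with it (4.53%). The difference of the miR-125b effect between the 2 labels was called for 0 genes (0% of all genes in both fits), with 0 at an unadjusted p under 0.05 (1.68%). DESeq2 called 0 in these 3 comparisons (0.0522%, 0.0597% and 0% of all genes).

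From Day10 on, replicate 3 was the library with the most p53 target genes at their highest in every group. It was the highest of 3 for 24 of 33 p53 target genes in miR-125b Day10, against 28.7% of all genes. The number was 23 in miR-ctrl Day13 (29.4% of all genes), 20 in miR-125b Day13WD (29.6%), 18 in miR-125b Day13 (28.8%), 16 in miR-ctrl Day13WD (26.7%) and 13 in miR-ctrl Day10 (29.4%). Day2 did not share this order. There replicate 3 was the highest for 11 genes with miR-125b (37.5% of all genes), where replicate 1 was for 13, and for 6 with control (27.6%), where replicate 2 was for 16.

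Some genes of granulocytes and basophils were higher with miR-125b at Day10 as well. The summed level of 10 granulocyte and monocyte genes lay between 46.3 and 107 CPM with miR-125b and between 25.5 and 37.0 CPM with control. Of the 9 tested, 1 was called (0.872% of all genes), Mpo, which encodes myeloperoxidase (log2 fold change 5.10, edgeR adjusted p = 0.0150). Of these 9, 7 were above 0 and 2 below, and 4 were called with the block (8.63% of all genes), all higher. Of 8 mast cell and basophil genes 0 were called without the block, with 2 at an unadjusted p under 0.05 (25%, against 17.4% of all genes). Their median log2 fold change was 0.02, with 4 above 0 and 4 below. With the block 2 rose, the protease genes Prss34 (4.52, adjusted p = 0.00174) and Mcpt8 (3.87, adjusted p = 0.00692). DESeq2 called 2 (4.66% of all genes with an adjusted p there). The summed level of these 8 genes overlapped, at 372 to 1130 CPM with miR-125b and 474 to 1430 CPM with control. The summed level of 12 proliferation genes lay between 3400 and 3500 CPM with miR-125b and between 3520 and 3870 CPM with control. Of these 12, 0 were called in either edgeR fit, and 1 was called by DESeq2. At an unadjusted p under 0.05 there were 2 (16.7%, near the 17.4% of all genes). The part of these values in the levels of the p53 target genes was not tested.

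A further 38 p53 targets outside the list were looked at, of which 34 were tested. At Day10, 0 of them were called without the block, 8 with it (6 higher and 2 lower, where 8.63% of all genes were called) and 4 by DESeq2 (4.66% of all genes with an adjusted p there), with 10 at an unadjusted p under 0.05 (17.4% of all genes). Their median log2 fold change was 0.06, against 0.39 for the p53 target genes of the list. Of the 8 called with the block, those higher with miR-125b included Ddit4, an inhibitor of mTORC1 (log2 fold change 1.48 with the block, adjusted p = 0.0321, edgeR), the peptide transporter gene Tap1 (0.65, 0.00823), Dcxr (0.62, 0.0276) and Bloc1s2 (0.38, 0.0256). The other 4 called with the block were Pmaip1, which encodes the death protein Noxa (0.74, 0.00249), and Abhd4 (0.36, 0.0279), both higher, and Ninj1, which encodes a membrane protein of dying cells (-0.42, 0.00638), and Tnfaip8 (-0.26, 0.0408), both lower. Of 32 upstream regulators and relatives of p53, 30 were tested and 0 were called at Day10 without the block, with 6 at an unadjusted p under 0.05, a share of 20% against 17.4% of all genes, and 1 called by DESeq2. With the block 4 were called (13.3%, against 8.63% of all genes), the p53-binding gene Trp53bp1 (0.38, adjusted p = 0.0255) and Ppp1r13l (0.66, 0.0481) higher, and the deacetylase gene Sirt1 (-0.58, 0.0313) and the ubiquitin ligase gene Rchy1 (-0.36, 0.0454) lower. At Day2 and in the libraries labelled Day13 and Day13WD, 0 of the 34 and 0 of the 30 were called without the block or by DESeq2. At an unadjusted p under 0.05 there were 1, 1 and 3 of the 34 and 2, 0 and 0 of the 30 in these comparisons (5.28%, 2.89% and 8.55% of all genes). With the block 1 was called, Ninj1, lower with miR-125b in the libraries labelled Day13WD (-0.41, adjusted p = 0.0165).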

How the data were processed

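The authors deposited 1 table of read counts per Ensembl mouse gene with a column for each of the 24 libraries, which was used as deposited. Per the submitters' processing notes, fastp, HISAT2 2.0.5 and featureCounts were used with the build mm10. Strandedness and annotation release are not given in the sources used here. Of 47069 identifiers, 46488 were matched to GENCODE M21 (GRCm38), whose gene coordinates are printed. Counts were scaled by TMM and tested with edgeR 4.0.16 in R 4.3.3 (filterByExpr, robust quasi-likelihood fit with 1 coefficient per group over all 24 libraries, 16 residual degrees of freedom). P-values were two-sided and adjusted over 13419 genes. In all 12 contrasts were tested. Standard errors come from the quasi-likelihood F. DESeq2 1.42.0 was an alternative, besides those in the closing section, and the test was checked on simulated data. For the fit without the block, the simulated libraries had less spread than the data (common dispersion 0.0591) and no effect of the replicate number. The check therefore does not cover that fit as used here.

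Same-numbered libraries pair. Over 84 pairs the correlation of their deviations from group means was above 0.1 in all (0.14 to 0.842), against a median of -0.358 for different numbers. Replicates differed by more than sampling noise, with a chi-square per degree of freedom of 11 or more. The 34 genes and the other lists were chosen with earlier results of these data known. Fold changes are printed for Trp53, Cdkn1a, Mdm2 and Mdm4 and for each gene called without or with the block. Those given for other genes were chosen after their values were seen.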

Additional observations from a re-analysis of the deposited data

Results flagged for a closer look

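The difference between the miR-125b effect at Day10 and in the libraries labelled Day13 was tested as an interaction and, with the replicate block, passed the threshold for 7 p53 target genes (edgeR, n = 3 libraries per group). The effect was lower at Day13 by the following log2 values. Cdkn1a had -1.27 (adjusted p = 0.0182), Phlda3 -1.17 (0.0266), Ak1 -1.75 (0.0161) and Sesn2 -0.68 (0.0407). Zmat3 had -0.97 (0.0245), Ercc5 -0.76 (0.0168) and Psrc1 -0.95 (0.0473). The difference had the same sign within all 3 replicate numbers for each of the 7. None of them passed without the block, where Ak1 had the lowest adjusted p of 0.093, and none passed with the block once miR-125b Day10 replicate 3 was left out.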

How the results depend on the processing

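The 5 p53 target genes called at Day10 became 11 with the replicate block, 8 with DESeq2, 3 with no filter on low counts, 0 when only the compared groups were fitted, and 0 to 10 when 1 library was left out. The count was 0 without miR-125b replicate 3, control replicate 1 or control replicate 3, 2 without control replicate 2, 3 without miR-125b replicate 1 and 10 without miR-125b replicate 2. The shares of all genes called at Day10 were 0.872% in the main fit, 8.63% with the block and 4.66% with DESeq2. Shares for the other settings, here and below, are not given, so those changes may hold for all genes alike. In the libraries labelled Day13WD the count of 0 became 2 with the replicate block, 2 with DESeq2, 1 with the newer quasi-likelihood estimate and 2 with the block and without control replicate 1, and stayed at 0 to 0 with 1 library left out. There 1.86% of all genes were called with the block and 0.792% with DESeq2. For the mean effect 4 became 7 with the block, 7 with the block and without miR-125b Day10 replicate 3, 9 (8 higher, 1 lower) with the block and without control Day13WD replicate 1, and 3 to 5 with 1 library left out. Averaging Day2 and Day10 alone also gave 4. For the mean effect over the 4 conditions, 1.28% of all genes were called in the main fit and 6.39% with the block. Between Day2 and Day10 with miR-125b, 0 became 5 with the block (4.08% of all genes), 4 with DESeq2 (2.74%), 2 with the newer estimate and 0 to 6 with 1 library left out. For the change of effect between Day10 and the libraries labelled Day13, 0 became 7 with the block (3.85% of all genes), 4 with DESeq2 (2.89%) and 0 to 6 with 1 library left out. Both counts of 6 came without miR-125b Day10 replicate 2. The cause was not tested. The mean over Day2 and Day10 and the block fits that leave out a library were chosen after seeing the data.

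Of 777 values for 47 named results under alternatives, 650 kept their direction and side of the threshold, 54 lost a call, 62 gained one and 11 changed sign. The 11 were uncalled values in fits without 1 library, and each is given with the range over such fits. At Day2 they were Mdm2 (-0.061 without control replicate 1, range -0.061 to 0.078), Mdm4 (0.085 without miR-125b replicate 3, range -0.17 to 0.085) and Trp53 (0.057 without miR-125b replicate 1, 0.026 and 0.013 without control replicates 2 and 3, range -0.1 to 0.057). In the libraries labelled Day13 it was Mdm2 (0.006 without control replicate 3, range -0.19 to 0.006). In those labelled Day13WD they were Cdkn1a (0.035 without control replicate 3, range -0.14 to 0.035), Mdm2 (0.016 without miR-125b replicate 2, 0.016 and 0.055 without control replicates 2 and 3, range -0.18 to 0.055) and Mdm4 (0.018 without control replicate 2, range -0.32 to 0.018). A group left with 1 library fewer borrows its spread from the other groups. Depth limits Pltp, Zfp365 and Gdf15, whose levels rest on at most 47 counts in a library.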
